A study of Mus musculus with 8 samples.

Results

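The response of wild-type mouse embryonic fibroblasts (MEFs) to c-di-GMP at 4 h was described from 4 of the 8 arrays of the series, 2 with c-di-GMP and 2 with DMSO, chosen by the treatment and genotype in the sample titles. MEFs are primary connective tissue cells cultured from the embryo. The protocol in the labels has c-di-GMP transfected with lipofectamine 2000 at 8 µg/ml for 30 min, controls had an equal amount of DMSO, and total RNA was taken 4 h after transfection from cells grown in DMEM with 10% serum and antibiotics. The labels do not say whether DMSO was given together with the transfection reagent, so an effect of the reagent and an effect of c-di-GMP cannot be told apart. The other 4 arrays are of TICAM knockout MEFs under the same treatments. 3 of them were normalized together with the wild-type arrays, and the 2 knockout c-di-GMP arrays also added to the estimate of the spread between arrays. Whether the arrays of a group came from separate cultures is not stated. The spread behind each p-value is therefore that between these arrays and could be technical alone.

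Cyclic di-GMP is a second messenger that bacteria make and mammals do not. In the cytosol it binds the adaptor protein STING, which recruits the kinase TBK1 to phosphorylate the transcription factor IRF3 and also leads to activation of NF-kB. IRF3 and NF-kB together switch on the interferon beta gene, and secreted interferon then acts through its receptor, JAK kinases and a complex of STAT proteins and IRF9 to induce interferon-stimulated genes in fibroblasts as in other cells.

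The mean signal was 252.6 and 640.3 on the 2 c-di-GMP arrays and 619.8 and 410.1 on the 2 DMSO arrays, and between 11254 and 11492 of 25697 probes were detected (detection p under 0.05) on each. Across 11544 probes, log2 values correlated at 0.974 between the c-di-GMP arrays, at 0.985 between the DMSO arrays and at 0.946 to 0.969 between treatments. The second knockout DMSO array had 6468 detected probes and was left out of the fit for that reason. All 10 fibroblast markers that passed the detection filter, of 11 on the array, were detected on all 4 wild-type arrays, with a summed linear intensity of 47531 and 40122 with c-di-GMP, against 39065 and 43873 under DMSO. Of 10 leukocyte markers on the array 7 passed the filter, with summed intensities of 3686 and 3105 with c-di-GMP, against 4112 and 3975 under DMSO, and 6 were detected on all 4 wild-type arrays. Those that passed included the macrophage genes Lyz2 and Adgre1, at mean log2 intensities of 10.96 and 9.43 with c-di-GMP, against 11.31 and 9.76 under DMSO. Cd68 and Cd14 were also lower with c-di-GMP, by 0.67 and 0.52 on the log2 scale. Tyrobp, Csf1r and Cd3e were higher, by 0.99, 0.36 and 0.26, so 4 of the 7 differences were negative and 3 positive. The summed intensities weigh Lyz2, the brightest of the 7, most. The pan-leukocyte gene Ptprc and the myeloid gene Itgam were among those that did not pass. Of the endothelial, epithelial, muscle and neural markers 2 of 7, 1 of 5, 3 of 5 and 2 of 5 passed the filter. No marker of any of these lists passed the limma test below, and any part of leukocytes in the results was not tested. In bulk RNA, fewer cells of a type and less RNA per cell cannot be told apart.

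A gene was tested if a probe reached detection (p under 0.05) on 2 or more of the 4 wild-type arrays, and it was represented by its brightest detected probe. A gene undetected with DMSO could thus be tested only through the c-di-GMP arrays, and the reverse held for genes undetected with c-di-GMP. These numbered 131 and 160 of the genes tested, and they count in the lists below. Differences are c-di-GMP minus DMSO in log2 normalized intensity with the standard error (SE) of the limma fit, n = 2 arrays a group, and a gene was called at a Benjamini-Hochberg adjusted p under 0.05 over all 8559 genes tested. Arrays are given in the order array 1, array 2. For a gene detected on neither array of a group that group's level is only a bound, and the ratio is written as "at least N-fold". The ratio sets the mean of the brighter group against the mean of a floor in the dimmer group, which on each array is the signal of its weakest detected probe or that of the gene if higher. Probes differ in how strongly they bind, so levels are compared between treatments and not between genes.

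c-di-GMP raised 392 genes (4.58% of 8559) and lowered 213 (2.49%), together 7.07%, while 2026 genes had an unadjusted limma p under 0.05. The rises were larger than the falls: 293 risers but 99 fallers moved by more than 1 on the log2 scale, 73 against 5 by more than 2, and 19 against 2 by more than 3. The median over the risers was 1.31 (quartiles 0.99 and 1.81) and over the fallers -0.98 (quartiles -1.18 and -0.84), against -0.06 over all genes tested. With undetected genes set at their bounds the medians were 1.23 and -0.94. Of the risers 63 were not detected on either DMSO array, and 32 of the fallers were detected on neither c-di-GMP array. The arrays of the treatments did not overlap for any called gene. Non-overlap was common in itself, since both c-di-GMP arrays lay above both DMSO arrays in 20.9% of all genes tested and below them in 30.5%.

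**Figure D1:**
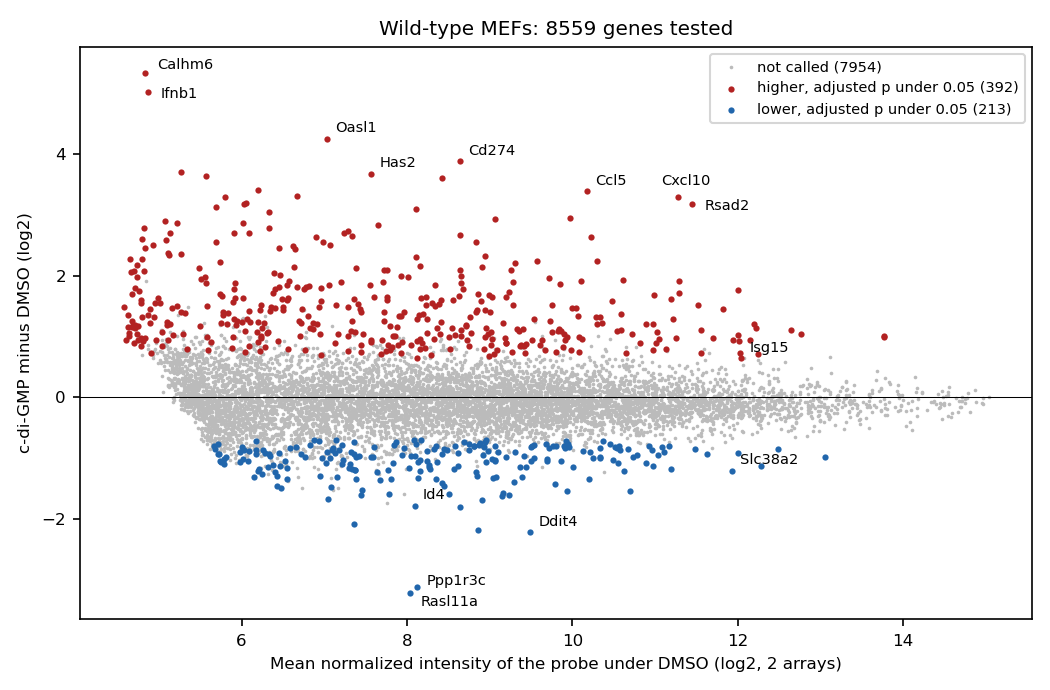
Difference between c-di-GMP and DMSO (log2) against the mean normalized intensity under DMSO (log2) for the 8559 genes tested, 1 point a gene, with the 392 risers in red and the 213 fallers in blue. Calhm6 and Ifnb1 lie highest, at 5.33 and 5.02, and Rasl11a and Ppp1r3c lowest, at -3.22 and -3.12.

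The number of falls depended on which arrays were in the fit more than the number of rises did. From the 4 wild-type arrays alone, 262 genes rose (3.06%) and 67 fell (0.783%), and 262 of the 392 risers and 65 of the 213 fallers were among them. With all 8 arrays in the fit 63 genes rose and 1 fell. Without the first c-di-GMP array there were 263 rises and 76 falls, without the second 604 and 720, without the first DMSO array 202 and 60, and without the second 125 and 10. Without the first or the second knockout c-di-GMP array there were 235 and 239 rises and 55 falls each. These arrays enter the wild-type means only through the shared normalization. Where a group was left with 1 array, the fit took its variance from the other groups. 117 risers and 10 fallers were called whichever wild-type array was left out.

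**Figure D2:**
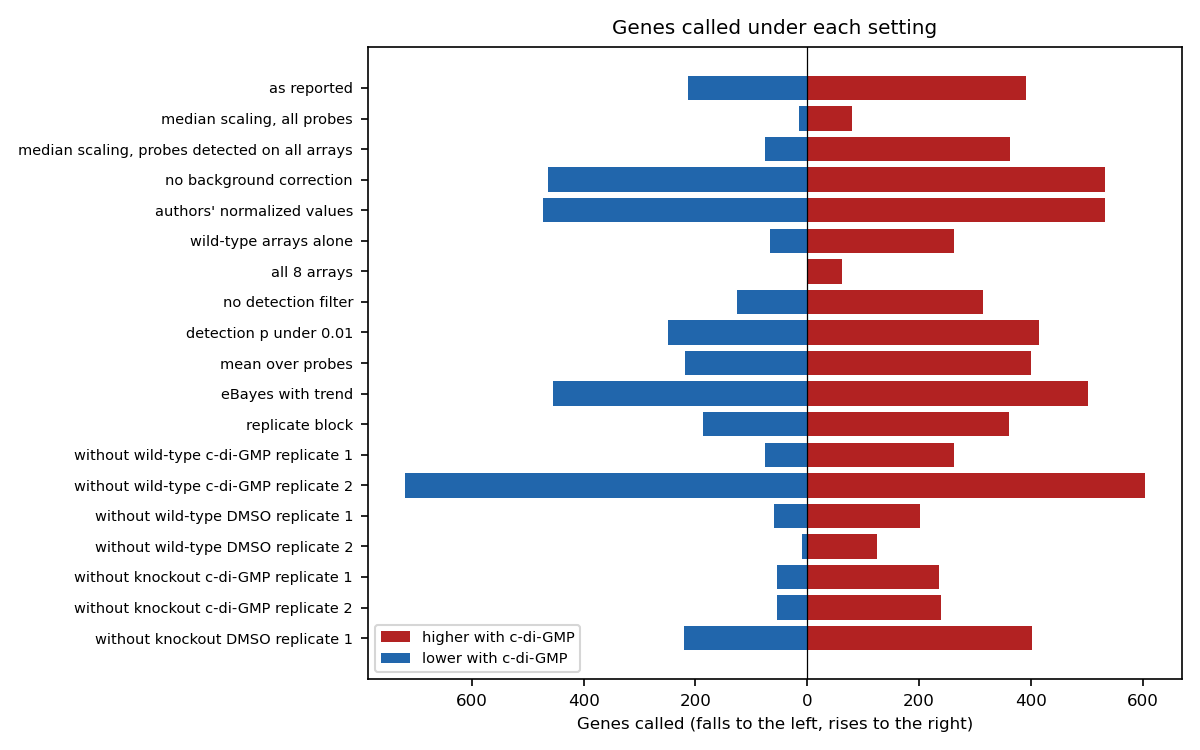
Number of genes called higher (red, to the right) and lower (blue, to the left) at an adjusted p under 0.05 in limma, as reported and under each other setting. Rises outnumbered falls under all of these settings except when the wild-type c-di-GMP array 2 was left out (604 rises, 720 falls).

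The first c-di-GMP array had the lowest mean signal of the wild-type arrays. It read below the second c-di-GMP array in 166 of the 213 fallers (77.9%), in 180 of the 392 risers (45.9%) and in 4717 of all genes tested (55.1%). Its part in the falls was not tested beyond the counts above. Rises made up 64.8% of the calls, against 79.6% with the wild-type arrays alone, 84.2% with intensities scaled to equal array medians over all probes, 82.6% with medians taken over probes detected on all arrays, 53.5% without background correction and 53% in the authors' normalized values. Median scaling over all probes gave 80 rises and 15 falls and moved the median of all genes from -0.06 to -0.26.

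Genes of type I interferons were raised in 2 of 4 cases (median 0.91, or 0.48 with undetected genes at their bounds). Ifnb1, which encodes interferon beta, read 9.75 and 10.02 with c-di-GMP, against 5.03 and 4.71 with DMSO. Both DMSO arrays were below detection, so the rise was at least 21.9-fold (limma adjusted p = 0.000294). Ifna4, an interferon alpha gene, read 6.11 and 5.99 against 4.54 and 4.61 and was likewise undetected with DMSO, a rise of at least 1.54-fold (adjusted p = 0.003). Of 17 interferon ligand genes on the array 4 passed the detection filter, and Ifnb1 and Ifna4 passed through the c-di-GMP arrays alone. The other 2, Ifna1 and Ifna6, were not called. Ifna1 was undetected with c-di-GMP and read 4.58 and 5.40 against 6.13 and 5.52 (adjusted p = 0.175), and Ifna6 stood at 0.33 ± 0.30 (adjusted p = 0.556). Calhm6, an interferon-induced member of the CALHM family of membrane channel proteins, had the largest difference of all genes tested: it read 10.24 and 10.07 against 4.95 and 4.71, at least 26.5-fold higher (adjusted p = 9.26e-05). Calhm6 and Ifnb1 kept their call in every alternative fit.

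The promoter windows of Calhm6, Ifnb1, Gbp5 and Cxcl10 are printed because they show strongly raised genes with the first motif alone, the second alone, and both. The sequences are those of the RefSeq promoter table (GRCm38.p6), from 250 bases before to 50 bases after the annotated gene start, each read 5′ to 3′ on the strand of the gene. Calhm6 lies on the minus strand at chr10:34127923-34128222, Ifnb1 on the minus strand at chr4:88522745-88523044, Gbp5 on the plus strand at chr3:142496684-142496983 and Cxcl10 on the minus strand at chr5:92348840-92349139. Capitals mark a match on either strand to the core of the interferon-stimulated response element to which IRF factors bind (GAAA, any 2 bases, GAAA), or to a form of the kappa B site (GGGA, any 2 bases, TTCC).
Calhm6: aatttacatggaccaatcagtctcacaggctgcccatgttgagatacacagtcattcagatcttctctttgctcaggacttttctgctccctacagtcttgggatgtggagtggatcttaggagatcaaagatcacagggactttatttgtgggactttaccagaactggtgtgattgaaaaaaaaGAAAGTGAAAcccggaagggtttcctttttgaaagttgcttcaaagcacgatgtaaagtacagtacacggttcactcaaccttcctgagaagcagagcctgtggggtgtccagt
Ifnb1: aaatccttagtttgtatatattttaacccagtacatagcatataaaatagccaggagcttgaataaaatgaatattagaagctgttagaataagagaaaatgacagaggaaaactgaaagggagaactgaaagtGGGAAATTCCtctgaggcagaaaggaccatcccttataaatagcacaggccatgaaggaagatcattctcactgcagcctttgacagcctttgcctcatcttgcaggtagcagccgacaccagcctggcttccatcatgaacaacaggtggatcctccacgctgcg
Gbp5: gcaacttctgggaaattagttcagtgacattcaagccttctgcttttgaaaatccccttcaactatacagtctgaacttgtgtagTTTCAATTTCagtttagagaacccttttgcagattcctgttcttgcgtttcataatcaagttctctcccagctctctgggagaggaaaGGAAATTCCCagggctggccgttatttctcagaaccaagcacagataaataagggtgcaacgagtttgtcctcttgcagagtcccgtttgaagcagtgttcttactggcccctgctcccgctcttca
Cxcl10: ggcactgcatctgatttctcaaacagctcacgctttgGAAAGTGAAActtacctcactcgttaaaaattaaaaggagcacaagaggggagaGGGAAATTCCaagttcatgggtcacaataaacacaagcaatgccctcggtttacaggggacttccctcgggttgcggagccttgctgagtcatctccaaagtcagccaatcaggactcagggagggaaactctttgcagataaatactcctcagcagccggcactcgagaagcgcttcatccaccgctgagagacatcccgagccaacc
Counted back from the annotated start, the Calhm6 window held, of these strings, the response element core alone, from base -64. The Ifnb1 window held the kappa B string alone, from base -116. Looser forms of the core, such as gaaaactgaaa in the Ifnb1 window, were not searched, so binding sites for IRF factors can be present without a match. Gbp5 held the core from base -165 and the kappa B site from base -77, both on the opposite strand. Cxcl10 held the core from base -213 and the kappa B site from base -159. None of these matches overlap each other.

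Genes of RNA and DNA sensing held several risers. Of 16 genes tested in the list of STING pathway and cytosolic sensors 7 rose and 0 fell (median 0.61). Ifih1, which encodes the RNA helicase sensor MDA5, read 9.83 and 9.25 against 7.12 and 6.68 (difference 2.63 ± 0.25, adjusted p = 0.00249). Dhx58, which encodes its relative LGP2, differed by 1.64 ± 0.23 (adjusted p = 0.0094). The genes Ifi205 and Ifi204 of the PYHIN family, whose members bind DNA, rose by 2.67 ± 0.17 and 1.40 ± 0.21 (adjusted p = 0.000708 and 0.0126). Ifi205 read 11.39 and 11.23 with c-di-GMP, against 8.78 and 8.50 under DMSO. Tbk1 stood at 0.58 ± 0.18 (adjusted p = 0.118) and Irf3 at -0.21 ± 0.15 (adjusted p = 0.447), so no change in their RNA was called. Cgas, which encodes the sensor that makes the cyclic dinucleotide cGAMP, stood at 0.38 ± 0.30 (adjusted p = 0.494). The calls of Dhx58 and Ifi204 were lost without either DMSO array.

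Of 14 genes of Toll-like receptors and their adaptors 3 rose (median 0.08). Tlr3, the receptor for double-stranded RNA, read 8.71 and 8.87 against 6.25 and 5.93 (2.70 ± 0.19, adjusted p = 0.000873). Tlr2, a receptor for bacterial lipoproteins, read 11.74 and 11.88 against 9.61 and 9.52 (2.24 ± 0.18, adjusted p = 0.00127). Myd88, which encodes the adaptor that TLR2 uses, read 12.54 and 12.81 against 11.12 and 10.86 (1.69 ± 0.18, adjusted p = 0.00344). All 3 were called whichever wild-type array was left out. Ticam1, the gene deleted in the knockout cells, was detected on 1 of the 4 wild-type arrays and was not tested, with unnormalized signals of 90.7 and 157.2 with c-di-GMP, against 156.1 and 109.3 under DMSO.

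Genes of IRF transcription factors were raised in 4 of 6 cases (median 1.60), while the interferon receptor and JAK-STAT list had 2 risers among 11 (median 0.23). Irf7, the IRF that amplifies interferon alpha transcription, read 9.91 and 9.72 against 8.09 and 7.36 (2.09 ± 0.25, adjusted p = 0.00566). Irf5 read 10.21 and 9.74 against 7.15 and 7.51 (2.65 ± 0.30, adjusted p = 0.00466). Irf1, an activator of antigen presentation genes, rose by 1.91 ± 0.18 (adjusted p = 0.00237), and its 5 detected probes gave 1.91 to 2.98. Irf2, which can compete with IRF1 for its sites, rose by 1.29 ± 0.16 (adjusted p = 0.00573). These 4 calls were kept whichever wild-type array was left out. In the JAK-STAT list Jak2 rose by 1.23 ± 0.20 and Stat2 by 1.05 ± 0.20 (adjusted p = 0.0165 and 0.0285). The calls of Jak2 and Stat2 were each lost without the first c-di-GMP array and without either DMSO array, and Stat2 did not pass from the wild-type arrays alone (adjusted p = 0.0538).

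Antiviral effector genes rose in 21 of 26 cases, with 0 falls and a median of 1.78 (1.64 with undetected genes at their bounds). The array held 32 of them, and 2 of the 26 were tested through the c-di-GMP arrays alone. Oasl1, which in the mouse restrains translation of Irf7, read 11.41 and 11.16 against 7.25 and 6.82. Its difference was 4.25 ± 0.20 (adjusted p = 0.000334), and its 3 detected probes gave 2.78 to 4.70. Rsad2, which encodes the radical SAM enzyme viperin, read 14.56 and 14.69 against 11.70 and 11.19 (3.18 ± 0.20, adjusted p = 0.000708). Cmpk2, a nucleotide kinase gene that lies beside Rsad2 in the genome, read 12.88 and 12.96 against 10.15 and 9.79 (2.95 ± 0.18, adjusted p = 0.000644). The dynamin-like GTPase genes Mx1 and Mx2 read 8.93 and 8.72 against 5.54 and 5.83, and 11.20 and 11.22 against 8.58 and 7.64. The differences of Mx1 and Mx2 were 3.13 ± 0.18 and 3.10 ± 0.31 (adjusted p = 0.000537 and 0.00265). The DMSO arrays of Mx2 lay further apart than its c-di-GMP arrays, but both stayed below them.

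Some of the brightest interferon-stimulated genes rose by less. Ifit3 and Ifit3b, whose proteins bind viral RNA, read 14.80 and 14.77 against 13.81 and 13.75, and 13.86 and 13.64 against 12.69 and 12.59. They rose by 1.01 ± 0.17 and 1.11 ± 0.16 (adjusted p = 0.0176 and 0.0109). Isg15, which encodes a ubiquitin-like protein, read 12.71 and 12.68 against 12.06 and 12.03 and rose by 0.65 ± 0.15 (adjusted p = 0.0456). The wild-type arrays alone gave an adjusted p of 0.115 for Isg15. The calls of Ifit3, Ifit3b and Isg15 were lost without either DMSO array, and those of Ifit3 and Isg15 also without the first c-di-GMP array. Ifit1 was detected on 1 of the 4 wild-type arrays and was not tested.

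All 5 genes tested in the ISG15 conjugation list rose, at a median of 1.14. Beside Isg15 these were Uba7 (0.96 ± 0.17) and Ube2l6 (1.14 ± 0.17), which encode its activating and conjugating enzymes, and Usp18 (1.20 ± 0.15), which encodes the protease that removes it. Usp25, a deubiquitinase gene, rose by 1.40 ± 0.18, from 7.50 and 7.38 to 8.75 and 8.93. The adjusted p of these 4 ranged between 0.00669 and 0.0208. Every one of these 5 calls was lost without the second DMSO array, all but that of Usp25 also without the first, and that of Isg15 also without the first c-di-GMP array.

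Interferon-inducible GTPases, which act on the vacuoles of intracellular pathogens and against viruses, were raised in 13 of 14 cases (median 2.08), and the same 13 were called from the wild-type arrays alone. The array held 15 of them, and 1 of the 14 was tested through the c-di-GMP arrays alone. Gbp5 read 9.28 and 9.12 against 5.59 and 5.55 (3.63 ± 0.16, adjusted p = 0.000294). Tgtp1, of the IRG family, read 9.51 and 9.25 against 6.73 and 5.93 (3.05 ± 0.27, adjusted p = 0.00185). Gbp2, a bright gene already with DMSO, read 13.67 and 13.87 against 12.01 and 11.99 (1.77 ± 0.17, adjusted p = 0.00224).

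**Figure D3:**
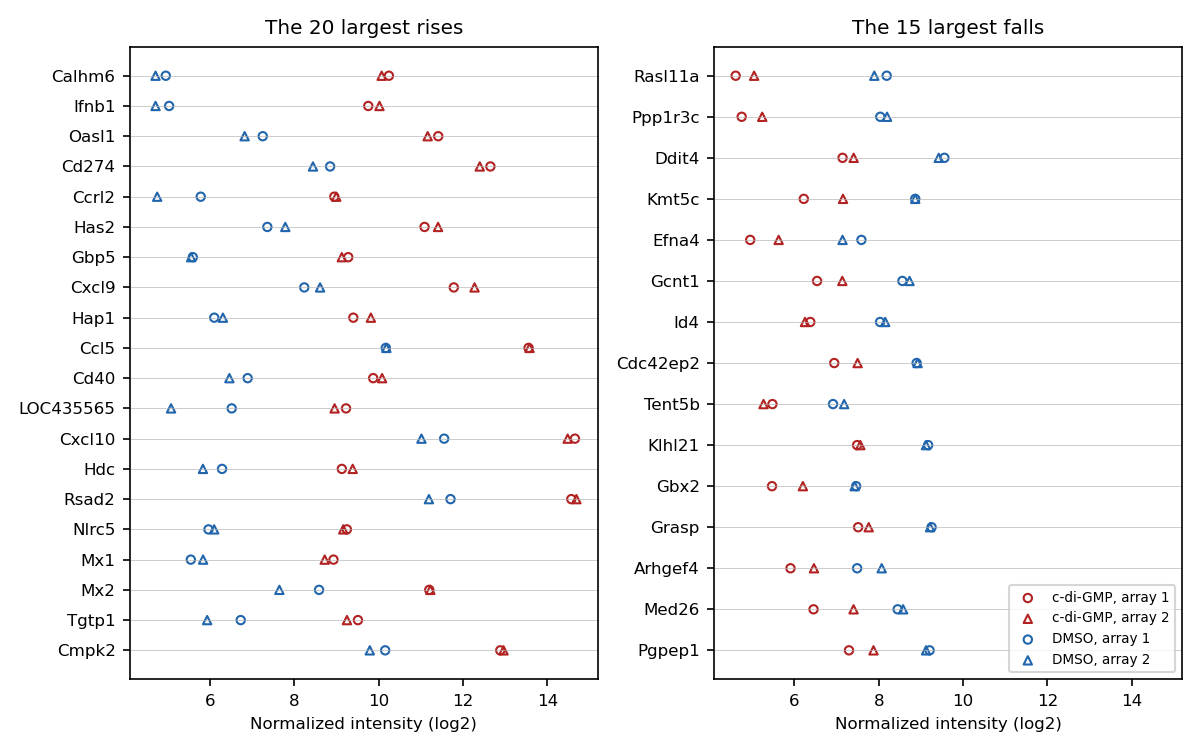
Normalized intensity (log2) on each of the 4 wild-type arrays for the 20 largest rises (left) and the 15 largest falls (right), with circles for array 1, triangles for array 2, c-di-GMP in red and DMSO in blue. In every gene shown, as in every called gene, the 2 red points lie on the same side of the 2 blue points, and in Ccl5 and Gbp5 the points of a treatment nearly coincide.

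Genes of ADP-ribosyltransferases and TRIM ubiquitin ligases held several risers. Of 5 PARP genes tested 3 rose (median 1.13): Parp14 read 12.05 and 11.92 against 9.36 and 8.77 (2.92 ± 0.27, adjusted p = 0.00223), and Parp8 and Parp12 rose by 1.34 ± 0.22 and 1.13 ± 0.23 (adjusted p = 0.0169 and 0.0323). Of 10 TRIM genes 6 rose and 1 fell (median 0.97). Trim21, which encodes a cytosolic antibody receptor, read 11.37 and 11.16 against 9.08 and 8.81 (2.32 ± 0.21, adjusted p = 0.00195). Trim25, whose product ubiquitinates the RNA sensor RIG-I, rose by 1.43 ± 0.21, Trim56 by 1.53 ± 0.19 and Trim30d by 1.01 ± 0.15 (adjusted p = 0.0118, 0.00654 and 0.0118). Trim21 and Parp14 kept their calls whichever wild-type array was left out. The other 5 genes named here lost theirs without the second DMSO array, all but Trim56 also without the first, and Parp8 and Parp12 also without the first c-di-GMP array. Parp12 did not pass from the wild-type arrays alone (adjusted p = 0.0522).

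Antigen presentation genes rose in 11 of 16 cases, with 0 falls and all 16 differences positive (median 1.28, or 1.14 at bounds). The array held 20 of them, and 1 of the 16 was tested through the c-di-GMP arrays alone. Nlrc5, which activates transcription of MHC class I genes, read 9.24 and 9.16 against 5.96 and 6.10 (3.17 ± 0.15, adjusted p = 0.000334). Psmb9, an immunoproteasome subunit gene, read 9.57 and 9.56 against 7.39 and 6.75 (2.49 ± 0.23, adjusted p = 0.00214). Both were called whichever wild-type array was left out. Tapbpl, which encodes a peptide editor of MHC class I, read 8.45 and 8.07 against 6.42 and 6.48 (1.80 ± 0.27, adjusted p = 0.0122). H2-T10, a non-classical class I gene that was undetected with DMSO, read 5.98 and 7.04 against 4.63 and 4.80, at least 2.11-fold higher (adjusted p = 0.0233). The c-di-GMP arrays of H2-T10 lay more than 1 apart. Tapbpl and H2-T10 lost their call without either DMSO array, and Tapbpl also without the first c-di-GMP array. H2-T10 did not pass from the wild-type arrays alone (adjusted p = 0.0538).

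Chemokine genes that attract T cells and monocytes were among the risers. Of 18 chemokine and chemokine receptor genes tested 7 rose and 0 fell (median 0.70), and the same number rose from the wild-type arrays alone. Cxcl10 read 14.65 and 14.48 against 11.55 and 11.01 (3.28 ± 0.24, adjusted p = 0.000945). Cxcl9, which shares the receptor CXCR3, read 11.78 and 12.27 against 8.23 and 8.61 (3.60 ± 0.22, adjusted p = 0.000644). Ccl5, a chemokine gene of the CC class, read 13.55 and 13.57 against 10.17 and 10.18 (3.39 ± 0.29, adjusted p = 0.00163). Ccrl2, which encodes a receptor that binds chemerin without signalling, read 8.94 and 8.99 against 5.78 and 4.75 (3.71 ± 0.32, adjusted p = 0.00163) and was detected on 1 of the 2 DMSO arrays. The monocyte chemokine genes Ccl2 and Ccl7 were bright with DMSO, at 12.73 and 12.82 and at 13.84 and 13.70. They rose by 1.03 ± 0.15 and 0.99 ± 0.15 (adjusted p = 0.0105 and 0.0127). Ccl2 and Ccl7 lost their calls without either DMSO array, whereas the 4 genes with larger rises kept theirs whichever wild-type array was left out.

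Of 19 cytokine and growth factor genes tested 9 rose and 0 fell (median 0.69, or 0.63 at bounds). The array held 36 of them, and 3 of the 19 were tested through the c-di-GMP arrays alone. Il15, a cytokine that sustains natural killer and memory T cells, read 10.46 and 10.50 against 7.70 and 7.60 (2.83 ± 0.15, adjusted p = 0.000431), and its 3 detected probes gave 2.16 to 3.63. Il15ra, the receptor chain that presents IL-15 on the cell surface, read 8.36 and 7.79 against 5.33 and 5.11. It was undetected with DMSO and at least 6.26-fold higher (adjusted p = 0.00115), and its 4 detected probes gave differences from 0.64 to 2.86. The inflammatory cytokine gene Il6 read 13.29 and 12.73 against 11.26 and 11.33 (1.71 ± 0.22, adjusted p = 0.00669). Tnf read 8.13 and 7.47 against 6.39 and 5.44 (1.88 ± 0.35, adjusted p = 0.0258), and did not pass from the wild-type arrays alone (adjusted p = 0.0538). The epithelial and stromal alarmin genes Tslp and Il33 rose as well. Tslp read 7.77 and 7.31 against 5.85 and 5.26 (1.98 ± 0.27, adjusted p = 0.00888). Il33, undetected with DMSO, read 7.11 and 6.30 against 4.57 and 4.89, at least 2.42-fold higher (adjusted p = 0.00974). Il6, Tnf, Tslp and Il33 lost their calls without the second DMSO array, Il33 also without the first and Tnf also without the first c-di-GMP array.

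Genes for immune ligands and receptors of the cell surface rose in 7 of 14 cases (median 0.80). The array held 19 of them, and 1 of the 14 was tested through the c-di-GMP arrays alone. Cd274, which encodes the T cell inhibitory ligand PD-L1, read 12.65 and 12.39 against 8.85 and 8.44 (3.88 ± 0.19, adjusted p = 0.000382). Cd40, a receptor of the TNF receptor family, read 9.87 and 10.08 against 6.89 and 6.46 (3.30 ± 0.20, adjusted p = 0.00058). The 3 detected probes of Cd40 gave 1.30 to 3.30. Cd69, best known as an early activation marker of lymphocytes, read 9.09 and 9.13 against 6.77 and 6.47 (2.49 ± 0.17, adjusted p = 0.000807). Vcam1, an adhesion molecule for leukocytes, was bright with DMSO at 12.25 and 12.19 and rose by 1.13 ± 0.17 (adjusted p = 0.0122). The call of Vcam1 was lost without either DMSO array.

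In the NF-kB list 8 of 21 genes rose and 0 fell (median 0.56). Tnfaip3, which encodes the inhibitory ubiquitin-editing enzyme A20, read 11.13 and 10.97 against 8.91 and 8.91 (2.14 ± 0.15, adjusted p = 0.000873). Tnip1, whose protein binds A20, rose by 1.65 ± 0.20 (adjusted p = 0.00575). The kinase genes Ripk2, of the NOD receptor pathway, and Map3k8, which activates ERK downstream of Toll-like receptors, rose by 2.09 ± 0.22 and 1.89 ± 0.18 (adjusted p = 0.00344 and 0.00249). All 4 were called whichever wild-type array was left out.

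The SOCS and cytokine feedback list moved in both directions, with 3 of 13 genes higher and 2 lower (median 0.16). Socs1, an inhibitor of JAK kinases, read 9.10 and 8.70 against 6.45 and 6.45 (2.45 ± 0.23, adjusted p = 0.00224). Dusp6, which encodes an ERK phosphatase, rose by 1.21 ± 0.17 (adjusted p = 0.0092), while Dusp1, which encodes a phosphatase of p38 and JNK, fell from 11.27 and 11.12 to 9.98 and 10.04 (-1.18 ± 0.16, adjusted p = 0.00836). The calls of Dusp1 and Dusp6 were lost without the second DMSO array, and that of Dusp1 also without the first.

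Cell death genes rose in 8 of 23 cases (median 0.46). Casp1 and Casp4, the inflammatory caspases that cleave gasdermin D, rose by 1.90 ± 0.16 and 1.88 ± 0.19 (adjusted p = 0.00138 and 0.00294). Casp1 read 9.05 and 9.16 against 7.12 and 7.28, and Casp4 read 10.37 and 10.69 against 8.58 and 8.73. Mlkl, the executioner of necroptosis, rose by 1.33 ± 0.17 (adjusted p = 0.00659) and Daxx, a histone chaperone gene, by 2.09 ± 0.27 (adjusted p = 0.00695). Mlkl and Daxx lost their calls without the second DMSO array.

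Of 19 immediate early genes tested, from 25 on the array, 6 rose (median 0.53), and 1 of the 19 was tested through the c-di-GMP arrays alone. Atf3, a stress-induced transcription factor that restrains cytokine genes, read 8.00 and 7.18 against 4.76 and 4.87. It was undetected with DMSO and at least 4.48-fold higher (adjusted p = 0.00573). Zfp36, which encodes the mRNA-decay factor tristetraprolin, rose by 1.44 ± 0.17, Junb by 1.35 ± 0.23 and Klf2 by 0.99 ± 0.16 (adjusted p = 0.005, 0.0175 and 0.0169). Zfp36 was the 1 riser among 9 genes of RNA decay bodies (median 0.64). Atf3 kept its call whichever wild-type array was left out, and the other 3 genes lost theirs without the second DMSO array. Junb and Klf2 also lost theirs without the first DMSO or the first c-di-GMP array.

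In the list of tryptophan, arginine and nucleotide enzymes of the interferon response 7 of 9 genes rose (median 1.50, or 1.28 at bounds). The array held 16 of them, and 1 of the 9 was tested through the c-di-GMP arrays alone. The list also holds Gbp2 and Ptgs2. Samhd1, which hydrolyses deoxynucleotides, read 11.62 and 11.42 against 9.30 and 9.32 (2.21 ± 0.16, adjusted p = 0.000952). Ptgs2, which encodes the prostaglandin-forming enzyme COX-2, read 8.85 and 8.14 against 6.67 and 6.48 (1.92 ± 0.27, adjusted p = 0.00974). The call of Ptgs2 was lost without the second DMSO array.

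Hyaluronan is a matrix polysaccharide, and of 7 genes for its synthases, binding proteins and degrading enzymes 3 rose (median 0.97). Has2, the synthase gene that fibroblasts mainly use, read 11.09 and 11.41 against 7.36 and 7.78 (3.68 ± 0.21, adjusted p = 0.000537). Ptx3, which encodes a pentraxin that crosslinks hyaluronan matrices, read 9.89 and 9.82 against 7.65 and 7.87 (2.09 ± 0.23, adjusted p = 0.00411). Vcan, which encodes the hyaluronan-binding proteoglycan versican, rose by 0.97 ± 0.17 (adjusted p = 0.0198). Has2 and Ptx3 were called whichever wild-type array was left out, and Vcan was not called without either DMSO array or from the wild-type arrays alone (adjusted p = 0.0558).

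Small numbers of genes rose in lists outside immunity. Of 13 Notch and Wnt genes tested, from 24 on the array, 3 rose (median -0.16), none of which passed from the wild-type arrays alone. These were the receptor gene Notch1 (1.25 ± 0.24, adjusted p = 0.0299), its target Hey2, undetected with DMSO and at least 1.71-fold higher (adjusted p = 0.0159), and the ligand gene Wnt5a (0.80 ± 0.15, adjusted p = 0.0263). Notch1 was not called whichever wild-type array was left out, Hey2 not without either DMSO array, and Wnt5a not without either DMSO array or the first c-di-GMP array. Mmp13, a collagenase gene, rose by 1.00 ± 0.18 (adjusted p = 0.0245), but its 3 detected probes ranged from -0.12 to 1.00. The call of Mmp13 was lost without either DMSO array.

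Among the falls, Rasl11a, Ppp1r3c and Ddit4 lay lowest. Rasl11a, which encodes a Ras-like small GTPase, read 4.61 and 5.04 with c-di-GMP against 8.19 and 7.89. It was undetected on both c-di-GMP arrays and at least 6.01-fold lower (limma adjusted p = 0.000873). Ppp1r3c, which encodes a subunit that targets protein phosphatase 1 to glycogen, read 4.75 and 5.24 against 8.04 and 8.20. It was undetected on both c-di-GMP arrays and at least 6.33-fold lower (adjusted p = 0.000735), the 1 fall among 15 genes of glycogen and glycolysis (median 0.10). Ddit4, which encodes the mTORC1 inhibitor REDD1, read 7.14 and 7.40 against 9.56 and 9.42 (-2.22 ± 0.17, adjusted p = 0.000997). With all 8 arrays in the fit only Ppp1r3c passed among the falls (adjusted p = 0.0185). All 3 were called from the wild-type arrays alone and whichever wild-type array was left out.

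The other 12 of the 15 largest falls encode proteins of diverse functions. Kmt5c, a histone H4 lysine methyltransferase gene, read 6.22 and 7.15 against 8.86 and 8.86 (-2.18 ± 0.29, adjusted p = 0.00836). Efna4, which encodes an ephrin ligand, read 4.95 and 5.63 against 7.59 and 7.14 (-2.08 ± 0.26, adjusted p = 0.00659). In both genes the first c-di-GMP array was the lower. Id4, an inhibitor of bHLH transcription factors, read 6.38 and 6.25 against 8.03 and 8.15 (-1.78 ± 0.18, adjusted p = 0.00294). Klhl21, which encodes a substrate adaptor of cullin 3, read 7.49 and 7.56 against 9.17 and 9.12 (-1.62 ± 0.16, adjusted p = 0.00253). Grasp, a scaffold protein gene, read 7.51 and 7.76 against 9.25 and 9.21 (-1.60 ± 0.16, adjusted p = 0.00294). Tent5b, a nucleotidyltransferase gene, read 5.48 and 5.27 against 6.92 and 7.18 (-1.67 ± 0.19, adjusted p = 0.00434). The remaining 6 had differences between -1.81 and -1.58: Gcnt1, a glycosyltransferase gene, Cdc42ep2, an effector of the GTPase CDC42, Gbx2, a homeobox gene, Arhgef4, a guanine nucleotide exchange factor gene, Med26, of the Mediator complex, and Pgpep1, a peptidase gene. Kmt5c and these 6 lost their call without the second DMSO array, Gbx2, Med26 and Pgpep1 also without the first, and Arhgef4 also without the first c-di-GMP array, while the other 8 of the 15 kept theirs whichever wild-type array was left out. Med26 did not pass from the wild-type arrays alone (adjusted p = 0.0538).

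The fallers with the highest intensity under DMSO fell by about 1 on the log2 scale. Slc38a2, an amino acid transporter gene, fell from 12.02 and 11.84 to 10.65 and 10.81 (-1.20 ± 0.17, adjusted p = 0.00941), with its 3 detected probes between -1.21 and -0.40. Midn, which encodes a protein that delivers nuclear proteins to the proteasome, fell from 12.25 and 12.32 to 10.93 and 11.38 (-1.13 ± 0.19, adjusted p = 0.0186). Chac1, a glutathione-degrading enzyme gene of the integrated stress response, fell from 11.69 and 11.56 to 10.75 and 10.65 (-0.93 ± 0.16, adjusted p = 0.0187). Jade1, of a histone acetyltransferase complex, fell by 0.91 on the log2 scale (SE 0.15, adjusted p = 0.0159), and Ldb1, a LIM-domain-binding cofactor gene, by 0.84 (SE 0.17, adjusted p = 0.035). LOC100040592, a name kept from the file, fell from 13.03 and 13.09 to 12.14 and 12.01 (adjusted p = 0.014). The treatments did not overlap in these genes, as in every called gene, and all 6 lost their call without either DMSO array. Chac1 and Ldb1 also lost theirs without the first c-di-GMP array and from the wild-type arrays alone (adjusted p = 0.0515 and 0.0828).

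Sterol synthesis genes tended to lie below zero, with few passing. Of 20 genes tested 3 fell and 1 rose, and 17 of the 20 differences were negative (median -0.48, against -0.06 over all genes tested). The list's median stayed negative under both kinds of median scaling (-0.65 over all probes and -0.32 over detected probes). Stard4, which encodes a sterol transport protein, fell from 8.37 and 8.47 to 6.94 and 7.09 (-1.41 ± 0.16, adjusted p = 0.00495). Mvd and Msmo1, which encode enzymes of the mevalonate and later cholesterol pathway, fell by 1.14 and 0.85 on the log2 scale (SE 0.23 and 0.17, adjusted p = 0.0329 and 0.0341). The riser was Ch25h, an interferon-induced hydroxylase that makes 25-hydroxycholesterol, an oxysterol that represses sterol synthesis genes. It read 13.45 and 13.12 against 11.83 and 11.83 (1.45 ± 0.18, adjusted p = 0.00563). From the wild-type arrays alone 1 of these falls and the rise of Ch25h were called, and without the second DMSO array none of the 4 was called. Without the first DMSO array Stard4 and Ch25h kept their calls, and Msmo1 was not called whichever wild-type array was left out.

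Genes linked to forkhead factors and glucocorticoids moved in both directions, with 5 of 16 higher and 3 lower (median -0.20). The array held 17 of them, and 2 of the 16 were tested through the c-di-GMP arrays alone. Beside Ddit4, Irs2, an adaptor of the insulin receptor, fell from 6.22 and 6.74 to 4.81 and 5.18. It was undetected on both c-di-GMP arrays and at least 2.03-fold lower (adjusted p = 0.0127), and it was also the 1 call among 10 genes of the IGF axis (median 0.05). Sesn3, which encodes a regulator of mTORC1 and was undetected with DMSO, was at least 1.8-fold higher (adjusted p = 0.0424), and Pik3ip1, which encodes an inhibitor of PI3-kinase, rose by 1.12 ± 0.25 (adjusted p = 0.0467). Irs2, Sesn3 and Pik3ip1 were not called without the second DMSO array or the first c-di-GMP array, nor Sesn3 without the first DMSO array. Pik3ip1 did not pass from the wild-type arrays alone (adjusted p = 0.088).

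In the remaining lists with a call, single genes stood out. Id4 was the 1 call among 8 BMP and Id genes (median -0.60). Bhlhe40, a transcriptional repressor of the circadian clock, fell from 10.42 and 10.57 to 9.38 and 9.56 (-1.03 ± 0.16, adjusted p = 0.0144), the 1 call among 11 clock genes (median -0.21). Of 17 contractile genes 2 fell: Lmod1, a smooth muscle actin nucleator gene, by 1.34 (SE 0.18, adjusted p = 0.00883), and Srf, which encodes the serum response factor, by 1.04 (SE 0.21, adjusted p = 0.0339). The median of that list was -0.17, and 0.17 with medians scaled over detected probes. Among 9 amino acid transporters (median -0.08) Slc38a2 fell and the cystine transporter gene Slc7a11 rose by 1.00 ± 0.18 (adjusted p = 0.0243). Slc7a11 and Ppp1r15a, which encodes a regulator of eIF2alpha phosphatase and rose by 1.04 ± 0.20 (adjusted p = 0.0276), were the 2 risers among 19 unfolded protein and integrated stress genes (median -0.20), where Chac1 was the 1 faller. Of 15 genes of matrix proteases and their inhibitors (median -0.05) Mmp13 rose and Mmp11, a stromelysin gene, fell by 0.87 (SE 0.17, adjusted p = 0.0304). Bhlhe40, Lmod1, Srf, Mmp11, Slc7a11 and Ppp1r15a were not called without the second DMSO array. All of these but Lmod1 and Slc7a11 were not called without the first DMSO array either, and all but Lmod1 and Mmp11 not without the first c-di-GMP array. Srf, Mmp11 and Slc7a11 did not pass from the wild-type arrays alone (adjusted p = 0.0756, 0.0756 and 0.0625).

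No gene was called in limma among 24 cell cycle genes (median -0.04), 16 p53 targets and cycle inhibitors (-0.08), 16 genes of oxidative phosphorylation (-0.02), 23 collagen and matrix genes (0.06), 14 genes of ribosome biogenesis (-0.24), 15 heat shock and oxidative stress genes (0.21), 10 fatty acid synthesis genes (-0.20), 14 TGF-beta and Hippo targets (-0.02) or 11 complement genes (0.12). An unadjusted p under 0.05 was found for 5, 4, 3, 3, 2, 6, 3, 6 and 2 of their genes in that order. The furthest from zero in these lists were Hmox1, the heme oxygenase gene, at 1.24 ± 0.40 (adjusted p = 0.118) and Cdkn2c, a cell cycle inhibitor gene, at -1.19 ± 0.41 (adjusted p = 0.142). The replicates of Hmox1 read 11.42 and 10.17 with c-di-GMP, and those of Cdkn2c 5.77 and 7.09, so the arrays of a treatment differed by more than 1 in both genes. Ccne1, the cyclin E1 gene, stood at 1.03 ± 0.31 (adjusted p = 0.103) and Rrm2, a ribonucleotide reductase subunit gene, at -0.86 ± 0.24 (adjusted p = 0.0809). The 2 detected probes of Rrm2 differed in sign, at -0.86 and 0.23.

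**Figure D4:**
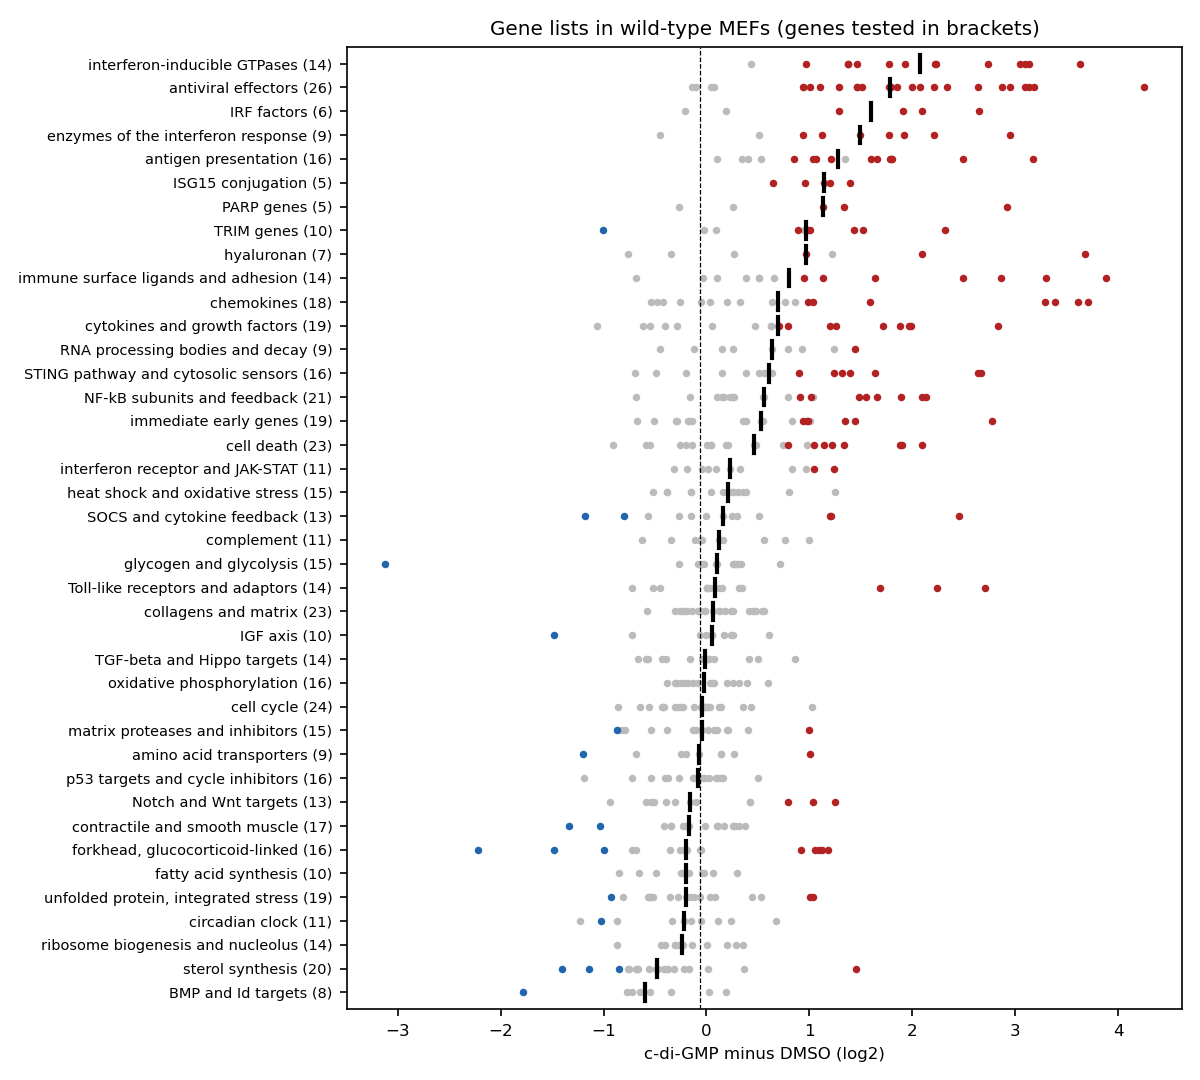
Difference between c-di-GMP and DMSO (log2) of each gene tested, by gene list, for lists with 5 or more genes tested, with called rises in red, called falls in blue and other genes in grey. Black ticks mark list medians, from 2.08 for interferon-inducible GTPases to -0.60 for BMP and Id genes, and the dashed line marks the median of all genes tested, -0.06.

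Of the risers 138 and of the fallers 17 belonged to any of the 47 lists, so 254 risers and 196 fallers lay outside them. The lists hold 839 genes, tested or not, and were written with earlier results of these data known. These counts therefore only describe the lists, and the share of all genes tested that belongs to a list was not counted. The genes in this paragraph that are not among the 20 largest rises were picked after their values were seen. Hap1, which encodes a transport adaptor named for its binding to huntingtin, read 9.40 and 9.81 against 6.10 and 6.30 (3.40 ± 0.19, adjusted p = 0.000537). Hdc, which encodes the enzyme that makes histamine, read 9.12 and 9.38 against 6.28 and 5.83 (3.20 ± 0.32, adjusted p = 0.00265). Lmo2, a transcriptional cofactor gene best known from blood cell formation, read 8.52 and 8.72 against 5.90 and 5.92 (2.70 ± 0.16, adjusted p = 0.000537). Batf2, a basic leucine zipper factor gene, was undetected with DMSO and at least 3.92-fold higher (adjusted p = 0.00163). Secreted growth factors were among them: Btc, which encodes the EGF receptor ligand betacellulin, was undetected with DMSO and at least 3.62-fold higher (adjusted p = 0.000945), and Gdnf, a neurotrophic factor gene, read 8.16 and 8.72 against 6.84 and 5.95 (2.04 ± 0.33, adjusted p = 0.0156). Kif5c, a kinesin gene, and Gja4, a connexin gene, were undetected with DMSO and at least 4.73-fold and 4.03-fold higher (adjusted p = 0.000708 and 0.000807). Xdh, which encodes the purine-degrading enzyme xanthine dehydrogenase, was at least 4.12-fold higher (adjusted p = 0.00185). Apobec1, a cytidine deaminase gene, read 9.59 and 9.44 against 7.36 and 7.42 (2.13 ± 0.19, adjusted p = 0.00185). Of the 10 genes named here Gdnf lost its call without the second DMSO array, and the others kept theirs whichever wild-type array was left out.

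The fallers outside the lists that are named here were also picked after their values were seen. Beside Rasl11a, its relative Rasl11b fell from 9.85 and 9.72 to 8.33 and 8.40 (-1.42 ± 0.16, adjusted p = 0.00426), and Rasl12 fell by 1.34 (SE 0.29, adjusted p = 0.0405). Rasl12 did not pass from the wild-type arrays alone (adjusted p = 0.0789), nor without the first c-di-GMP array or either DMSO array. Rgs4, which encodes a GTPase activator of G proteins, fell from 10.66 and 10.73 to 8.99 and 9.31 (-1.55 ± 0.17, adjusted p = 0.00411), and Trib2, a pseudokinase gene, from 9.97 and 9.90 to 8.15 and 8.64 (-1.54 ± 0.23, adjusted p = 0.0115). Wasf1, of the complex that activates actin branching, fell by 1.14 (SE 0.18, adjusted p = 0.0135). Trib2 and Wasf1 lost their calls without either DMSO array, and Rasl11b and Rgs4 kept theirs whichever wild-type array was left out. Of 148 zinc finger genes with the Zfp prefix 14 fell and 4 rose, and 33 differences were positive (median -0.28). The shares of all genes tested that fell and rose were 2.49% and 4.58%.

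Promoter windows were available for 6631 of the 8559 genes tested, and 5 motifs were searched on both strands. A gene was counted if any of its windows held the motif. The response element core stood in 40 of 272 risers with a window (14.7%), in 2 of 171 fallers (1.17%), in 3.46% of tested genes that were not called and in 3.99% of all 27025 genes with a window, tested or not. It stood in 9 of the 33 genes with a window among the 50 largest rises (27.3%). The kappa B form stood in 12 of 272 risers (4.41%), 5 of those 33 (15.2%), 0 of 171 fallers, 1.6% of genes not called and 1.63% of all genes with a window. Both motifs together stood in 3 of 272 risers (1.10%) and in 0.136% of all genes tested with a window. The risers with the core had a median difference of 1.5 and those without it 1.24.

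The other 3 motifs were counted in the same way. The cyclic AMP response element TGACGTCA stood in 2.94% of risers, 2.34% of fallers and 3.83% of genes not called (2.03% of all genes with a window). The E-box CACGTG stood in 9.56%, 11.1% and 12.2% (8.09% of all genes with a window), and the forkhead site GTAAACA in 5.88%, 1.75% and 2.93% (4.05%). Among the fallers named above, the window of Ppp1r3c held an E-box, and the windows of Rasl11a, Ddit4 and Klhl21 held none of the 5 motifs. A match is a run of letters in the window and does not show that a factor binds there.

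**Figure D5:**
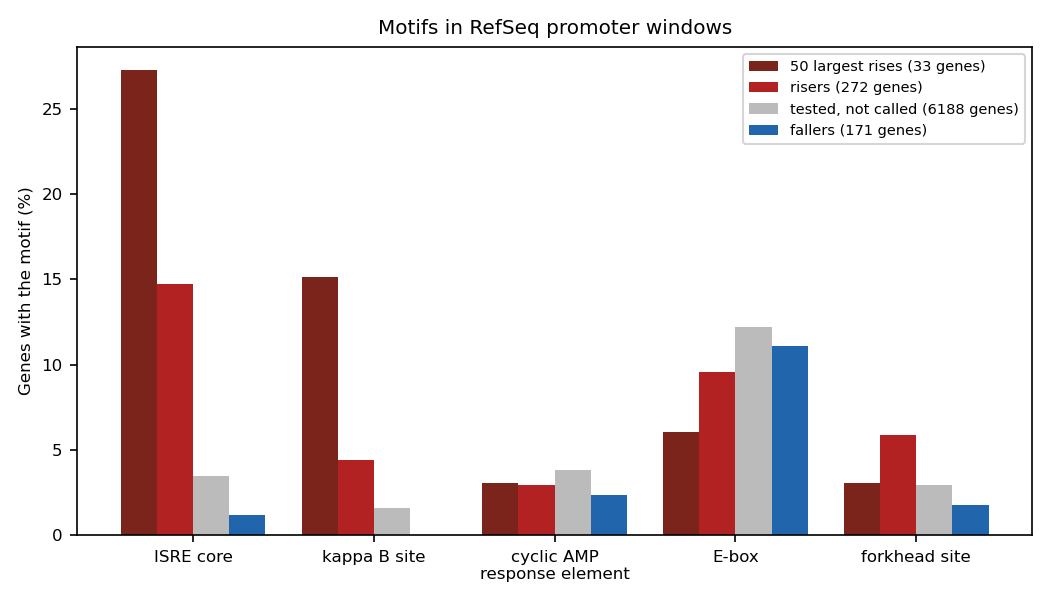
Percentage of genes whose RefSeq promoter window (300 bases) holds each motif, for the 50 largest rises, all risers, tested genes that were not called, and fallers. The core of the interferon-stimulated response element (ISRE) stood in 27.3% of the largest rises and 3.46% of genes not called, and the kappa B site in 15.2% and 1.6%.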

How the data were processed

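The authors deposited non-normalized probe intensity with a detection p-value beside each signal, per the file headers. The submitters' processing notes name GenomeStudio 2010.2. Its background setting was not given in the sources used here. They also deposited normalized intensity on a linear scale by a method not stated, which served as an alternative after log2.

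Names of 25697 probes were updated through the RefSeq gene table to 17870 symbols, and 939 probes kept their old name. Signals of 7 arrays were background-corrected and quantile normalized on the log2 scale with neqc of limma 3.58.1 (R 4.3.3, offset 16). The limma fit had 1 mean a group, 3 residual and 3.82 prior degrees of freedom, and two-sided moderated tests with Benjamini-Hochberg adjustment over 8559 genes. The number of arrays limits the precision. The fit was tested on simulated data.

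Genes were named by rule: the 20 largest rises and 15 largest falls, in each of 47 lists the 4 called genes with the largest difference (or, with none called, the 2 largest differences), the 8 brightest risers and 8 brightest fallers, and a fixed set of interferon pathway genes and fallers. The largest rises and falls were to be called genes whose treatments did not overlap, a condition that every called gene met. The arrays, lists and fixed genes were chosen with earlier results of these data known. Sting1 is not analysed here, and 1 fixed gene is not reported here. Alternatives were other scalings, detection filters and sets of arrays, no background correction, the authors' values, the mean over probes, a variance trend, the replicate number as a block and leaving out each array.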

Additional observations from a re-analysis of the deposited data

How the results depend on the processing

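As reported, 392 genes rose and 213 fell. Rises numbered 80 with median scaling over all probes and 63 with all 8 arrays, and falls 15 and 1. Falls further numbered 76 with median scaling over detected probes (a setting chosen after seeing the data), 463 without background correction, 472 in the authors' normalized values, 67 from the wild-type arrays alone, 125 without a detection filter and 455 with a variance trend. For these settings the rises stayed within 1.5 times of 392. Leaving out 1 array at a time gave 125 to 604 rises and 10 to 720 falls. The labels do not say whether arrays with the same replicate number were paired. The differences between replicates 1 and 2 of the treatments correlated at 0.04 across genes, a single value that cannot settle this. The fit with the replicate number as a block gave 361 rises and 187 falls. Over all alternatives, 2274 values of named genes stayed on the same side of the threshold, 405 no longer passed and 48 newly passed. Of values called as reported or in the alternative, 0 changed sign. Sign changes of genes called in neither were not counted. Of the list medians 776 moved by less than the spread between replicates and 68 by more, and at a detection p under 0.01 the endothelial and epithelial lists had no gene left. Signal over background limits genes that were not detected on either array of a treatment, whose changes are bounds, and 2 arrays a group limit what falls of about 1 on the log2 scale can show.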

Other observations

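Some bright or less known genes among the risers belong to no comparison above. Serpina3g, which encodes a serine protease inhibitor, read 13.08 and 13.10 with c-di-GMP, against 12.07 and 12.22 under DMSO (0.95 ± 0.16, limma adjusted p = 0.0177), and Serpina3f, picked after its values were seen, read 10.29 and 10.55 against 8.20 and 8.02 (2.31 ± 0.19, adjusted p = 0.00138). Serpina3g lost its call without the first c-di-GMP array and without either DMSO array. LOC435565 and LOC100047261, names kept from the file, rose by 3.29 ± 0.42 and 0.72 ± 0.15 (adjusted p = 0.007 and 0.0341). LOC435565 was not called without the first c-di-GMP array, and LOC100047261 not without that array, without either DMSO array or from the wild-type arrays alone (adjusted p = 0.0956). Of 28 genes with the Olfr prefix that passed the detection filter, a family picked after its values were seen, 3 fell and 0 rose, and 4 differences were positive (median -0.40). Of all genes tested 2.49% fell and 4.58% rose, and 3655 of 8559 differences were positive. The Olfr genes had a median log2 intensity of 5.80 under DMSO, near the weakest detected probes of the DMSO arrays (5.40 and 5.45). Genes with more than 1 detected probe numbered 91 among the risers, of which 8 had probes of both signs, and 32 among the fallers, of which 4 did, while among all genes tested 921 of 2145 such genes had probes of both signs.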
